A study of Mus musculus with 6 samples.

Results

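The core circadian clock genes were examined in MLO-Y4 cells, a mouse osteocyte-like cell line immortalised with a viral large T antigen under the osteocalcin promoter, after low-intensity pulsed ultrasound (LIPUS). The members were set by gene name, with no threshold on their values, as Per1, Per2, Per3, Cry1, Cry2, Arntl (also called Bmal1), Clock, Dbp, Bhlhe40 and Bhlhe41. All 10 were found, among 53797 genes in the deposited comparison table. RNA was sequenced from 3 LIPUS samples, stimulated for 20 min at 30 mW/cm2 and 1.5 MHz, and from 3 untreated Control samples. The cells of both groups were kept in medium with fetal bovine serum, seeded in collagen-coated wells the day before and shared culture plates, in which the transducers under the Control wells were unplugged. RNA was taken 30 min after the stimulation ended, or 50 min after it began. The labels and methods used here give no clock synchronisation step and no time of day.

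The mammalian clock is a transcriptional feedback loop that runs in nearly every cell. CLOCK and BMAL1, the protein made from Arntl, bind E-box elements and activate the Per and Cry genes, and PER and CRY proteins later repress their own activators. A further loop of REV-ERB and ROR nuclear receptors sets the level of Arntl, while Dbp carries the rhythm to output genes through D-box elements, and Bhlhe40 and Bhlhe41 (Dec1 and Dec2) repress at E-boxes. Per1, Per2 and Bhlhe40 are also known as genes that signals such as serum or cAMP can induce within an hour. In bone, clocks run in cells of the osteoblast lineage, and loading is among the cues known to act on skeletal clocks.

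The authors deposited a single FPKM (sequenced fragments scaled to exon length and library size) for each group, pooled over its libraries. Because of the length scaling, levels can be compared between genes. The table holds no value of a single library, so no SD and no view of whether a library stood apart was possible here. No test between the groups was run, and the authors' own test results, which the table also holds, were not used. The number of fragments behind a value is unknown, although the methods state a nominal read number per library. The study itself describes a Control library that stood apart from the others and names leakage of ultrasound within the shared plate as a possible source. The pooled Control FPKM in every ratio includes that library, and its part in the results was not tested. Differences below are therefore descriptions of 2 pooled values, and a ratio past 1.5-fold is used only as a size. The program Cuffdiff, with which the authors compared the groups, marked 8145 genes as tested, all with an FPKM of at least 6.70 in a group, and 45652 as not tested. Of the tested genes, 9.42% differed by more than 1.5-fold between the groups, with 4.70% higher and 4.71% lower in the LIPUS group. RNA came from whole cultures, so fewer expressing cells and less RNA per cell cannot be told apart.

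Of the osteocyte markers checked, Pdpn had an FPKM of 295 in Control and 402 in LIPUS cells, and Gja1 one of 176 and 170. Dmp1 had 3.04 and 7.65, Phex was listed at 0 and 0.190, and Sost, Mepe and Fgf23 were listed at 0 in both groups. The markers of mature osteocytes, Dmp1 excepted, were thus at or near 0. Of the osteoblast markers, Col1a1 had 891 and 731, Alpl 293 and 190, and Sp7 5.86 and 3.75, while Bglap was listed at 0 and 1.58 and Ibsp at 0 in both groups. Of the 8 markers of macrophages, endothelium and epithelium, 6 were listed at 0 in both groups. The exceptions were Cd68, at 5.32 in Control and 1.72 in LIPUS cells, and Pecam1, at 0.496 and 0, and their part in the results below was not tested.

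All 10 clock genes were detected in both groups, and none differed by more than 1.5-fold between them. Without a filter, 22.8% of all genes with a ratio were past 1.5-fold. Cuffdiff had tested 5 of them (Per1, Cry1, Arntl, Clock and Bhlhe40), of which 0 were past 1.5-fold in either direction, beside the 9.42% of all tested genes. With only 5 genes, nothing was read from this share. The median log2 ratio of the 5 tested members was -0.10, against 0.0042 over all tested genes, and their median absolute log2 ratio was 0.13, against 0.18. Over all 10 members the log2 ratios ran from -0.29 for Arntl to 0.43 for Bhlhe40, with 6 below and 4 above zero. The ratio stayed within 1.1-fold for 6 members, a share that was not computed over all genes. Only Bhlhe40 passed a log2 ratio of 0.32 in either direction, beside 27.0% of all tested genes. Of the 10 members, 5 were not tested by Cuffdiff, so nothing was read from these counts.

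**Figure D1:**
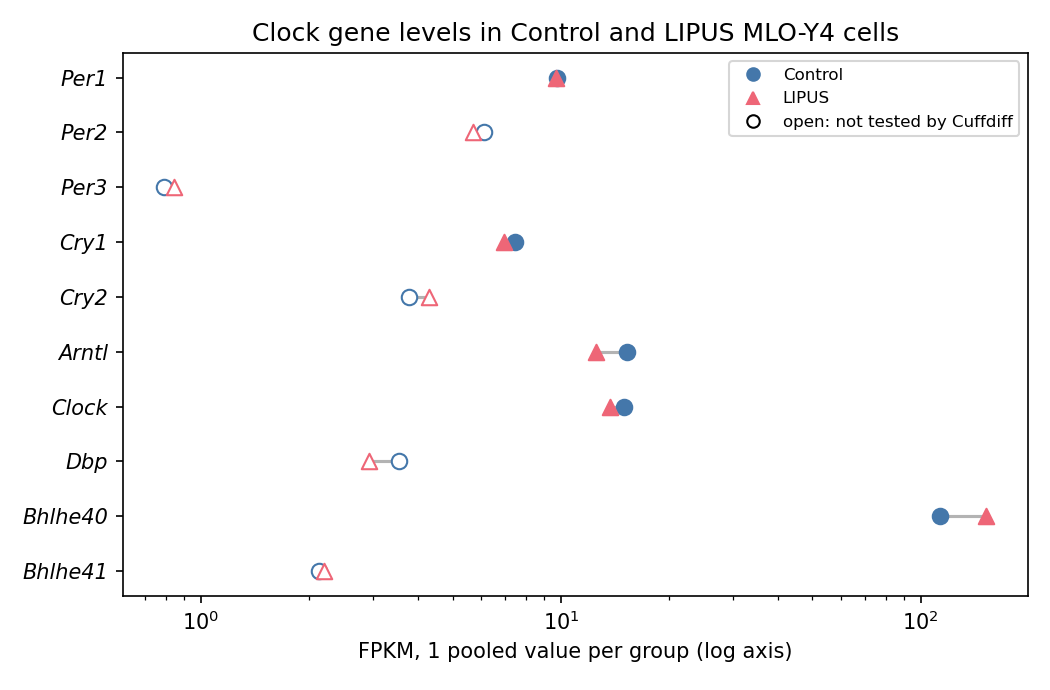
FPKM of the 10 core clock genes (log axis), with circles for Control and triangles for LIPUS, each a single value pooled over 3 libraries, so no error bar can be drawn. Open symbols are genes that Cuffdiff did not test. The symbols of a gene nearly coincide except for Bhlhe40, which lay at 113 and 152, and, by smaller steps, Arntl, Dbp and Cry2.

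The members spanned a wide range of levels. In Control cells the order was Bhlhe40, Arntl, Clock, Per1, Cry1, Per2, Cry2, Dbp, Bhlhe41 and Per3, and the highest FPKM was 143 times the lowest. Without Bhlhe40 this span was 19.4-fold. The same order was found in LIPUS cells except that Clock stood above Arntl. No replicate spread is at hand, so whether neighbours such as Arntl and Clock differ was not tested. Bhlhe40 alone held 63.9% of the summed FPKM of the 10 genes in Control cells and 72.1% in LIPUS cells.

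The positive limb consists of Arntl and Clock, whose proteins form the activating pair. Arntl (ENSMUSG00000055116) lies on chromosome 7 from 113207465 to 113314126 (positions of genes are those of GRCm38), and its FPKM was 15.3 in Control and 12.5 in LIPUS cells. This was a ratio of 0.816, or a log2 ratio of -0.29, the lowest of the members, and 15.1% of the tested genes had a lower ratio. Clock (ENSMUSG00000029238), on chromosome 5 from 76209868 to 76304792, reached an FPKM of 14.9 in Control and 13.7 in LIPUS cells, a log2 ratio of -0.13. Both partners were thus lower in the LIPUS group, by less than 1.5-fold, and their levels stayed close to each other, with an Arntl to Clock ratio of 1.02 in Control and 0.913 in LIPUS cells. The paralogs that can take their places were scarce. Npas2, which can stand in for Clock, was listed at 0 in Control and 0.0524 in LIPUS cells, and Arntl2 had an FPKM of 1.27 and 1.36.

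The negative limb is made of the period and cryptochrome genes. Per1 (ENSMUSG00000020893), on chromosome 11 from 69095217 to 69109960, is the member best known for acute induction. Its FPKM was 9.75 in Control and 9.68 in LIPUS cells, a log2 ratio of -0.011, and 3.38% of the tested genes had a smaller absolute ratio. Per1 was thus nearly equal in the groups 50 min after the start of stimulation. Per2 (ENSMUSG00000055866), on chromosome 1 from 91415982 to 91459324, reached an FPKM of 6.11 in Control and 5.69 in LIPUS cells, a log2 ratio of -0.10. It was not tested by Cuffdiff and lay just under the lowest level of the tested genes, while Cry1 lay just above it. Per3 (ENSMUSG00000028957), on chromosome 4 from 151003652 to 151044665, was the scarcest member, with an FPKM of 0.789 in Control and 0.841 in LIPUS cells, a ratio of 1.07. Cry1 (ENSMUSG00000020038), on chromosome 10 from 85131700 to 85185064, reached an FPKM of 7.47 in Control and 6.95 in LIPUS cells, a log2 ratio of -0.10. Its paralog Cry2 (ENSMUSG00000068742), on chromosome 2 from 92403646 to 92434043, differed the other way, with 3.80 in Control and 4.31 in LIPUS cells and a log2 ratio of 0.18, and was not tested by Cuffdiff.

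The summed levels of the period genes and of the cryptochromes were nearly equal between the groups. The 3 period genes together had an FPKM of 16.6 in Control and 16.2 in LIPUS cells. Both cryptochromes together had an FPKM of 11.3 in each group, so that the lower Cry1 and the higher Cry2 cancelled. Against the summed positive limb, which went from 30.2 in Control to 26.2 in LIPUS cells, the ratio of the negative to the positive limb was 0.924 in Control and 1.05 in LIPUS cells.

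The loop closes through promoter elements such as the E-box, which were searched for in the promoter windows at hand. The stretches shown here were chosen with the values known. They set genes at nearly equal levels in both groups (Per1, Cry1) beside the tested clock genes that differed most (Nr1d1, Tef). RefSeq windows of 300 bases on GRCm38.p6, from 250 before to 50 after a transcript start, were found for 8 of the 10 members, in 12 windows, and not for Per2 and Bhlhe40. Motifs were searched on both strands: the E-box CACGTG, the E-prime-box CACGTT, the D-box TTATGNAA, the cAMP response element (CRE) TGACGTCA, a short CRE form TGACGT, which the full CRE also holds, and, by name, the CArG box of SRF and the ROR element (RORE). The sequences read 5′ to 3′ on the strand of the gene, with the motif in capitals.
Per1 E-box, 166 bases before the start, chr11:69098763-69098808, plus strand: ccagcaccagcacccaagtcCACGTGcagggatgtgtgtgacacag
Per1 short CRE form, 132 bases before a second start, chr11:69100000-69100045, plus strand: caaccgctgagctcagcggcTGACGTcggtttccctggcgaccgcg
Cry1 E-prime-box and E-box, 79 and 60 bases before the start, chr10:85185089-85185153, minus strand: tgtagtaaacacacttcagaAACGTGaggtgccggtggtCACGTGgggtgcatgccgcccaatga
Nr1d1 E-prime-box, 28 bases before the start, chr11:98775380-98775425, minus strand: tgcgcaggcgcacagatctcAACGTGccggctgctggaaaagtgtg
Tef E-box, 138 bases before a start, chr15:81811256-81811301, plus strand: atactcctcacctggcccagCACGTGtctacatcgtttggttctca

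The E-prime-boxes of Cry1 and Nr1d1 appear as AACGTG because they read as CACGTT on the other strand. An E-box was found in 3 of the 12 member windows, those of Per1, Cry1 and Bhlhe41, and in 7.15% of all 32851 promoter windows. A D-box was present in 2 member windows (Per1 and Per3), against 3.38% of all windows, and an E-prime-box in 2 (Cry1 and Cry2), against 4.68%. The full CRE and the CArG box were in no member window, against 1.79% and 1.63% of all windows, while the short CRE form, present in 7.51% of all windows, lay in 1 (Per1). The RORE was in 1 member window, that of Arntl, starting at base 27 of a transcript, and in 0.384% of all windows. A motif match is a description of the letters in these windows only. Genes of the lists with an E-box window had ratios on both sides of 1. The log2 ratio was -0.011 for Per1, -0.10 for Cry1 and 0.04 for Bhlhe41 among the members. Among the other listed genes it was -0.95 for Tef, 0.12 for Ciart, 1.104 for Klf11, -0.19 for Lonrf3 and 0.01 for Tspan4, of which Ciart, Klf11 and Lonrf3 were not tested by Cuffdiff.

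The largest difference among the members was that of Bhlhe40 (ENSMUSG00000030103), the gene of the repressor DEC1, on chromosome 6 from 108660629 to 108666925. Its FPKM was 113 in Control and 152 in LIPUS cells, a ratio of 1.35 and a log2 ratio of 0.43. Among all tested genes 91.3% had a lower ratio. Ratios spread less at high levels, and among the 504 tested genes with a mean FPKM from 100 to 200, 95.4% had a lower ratio than Bhlhe40 and 3.97% were past 1.5-fold. Among the 3608 tested genes with a mean FPKM from 6 to 20, the band of Per1, Cry1, Arntl and Clock, 12.7% were past 1.5-fold, and 20.5% had a lower ratio than Arntl. Its paralog Bhlhe41 (DEC2, ENSMUSG00000030256), on chromosome 6 from 145858243 to 145865558, was scarce, with an FPKM of 2.13 in Control and 2.19 in LIPUS cells, and was not tested by Cuffdiff. The Bhlhe40 level was 53.0 times that of Bhlhe41 in Control cells and 69.4 times in LIPUS cells, and it was 7.39 and 12.2 times that of Arntl.

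Dbp (ENSMUSG00000059824), a D-box activator whose transcript is a direct CLOCK and BMAL1 target, lies on chromosome 7 from 45705088 to 45710203. It had an FPKM of 3.55 in Control and 2.94 in LIPUS cells, a log2 ratio of -0.27, and was not tested by Cuffdiff. Dbp shares 539 exonic bases, 18.0% of its exons, with Sphk2 on the opposite strand, which had an FPKM of 8.76 and 8.10. The libraries were made with a kit that keeps the strand, but whether the FPKM used it is not given in the sources used here, and without it reads of the shared stretch could belong to either gene. Bhlhe41 shares 19.0% of its exons with Gm43909, a transcript of uncertain status listed at 0.511 in Control and 0 in LIPUS cells, and the other members share under 5% of theirs with any other gene.

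**Figure D2:**
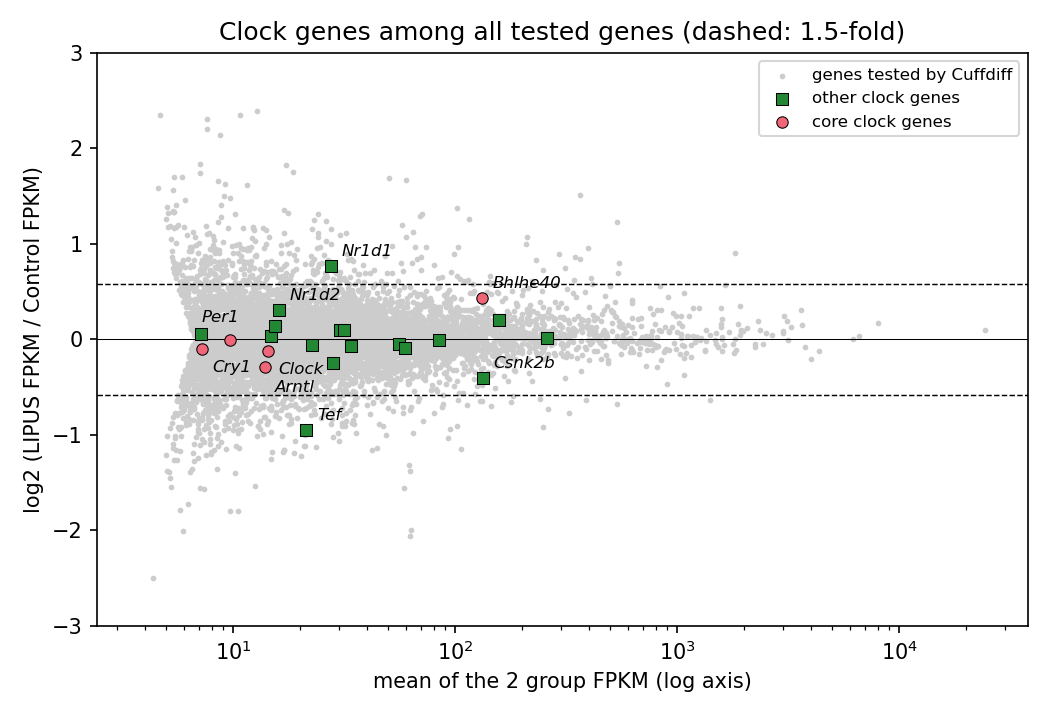
The log2 ratio of LIPUS to Control FPKM against the mean FPKM of both groups (log axis) for the genes tested by Cuffdiff (grey), with the tested core clock genes as circles and the other tested clock genes as squares, and dashed lines at 1.5-fold. The 5 core genes lie between the dashed lines, and of the other clock genes Nr1d1 lies above and Tef below them. Not drawn are 2 tested genes listed at 0 in a group and 3 with an absolute log2 ratio over 3.

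Beyond the members, 25 other clock genes were examined, of which Cuffdiff tested 17. Of these, 1 was higher and 1 lower by more than 1.5-fold, beside backgrounds of 4.70% and 4.71%, and their median log2 ratio was 0.02. The higher gene was Nr1d1, which encodes the nuclear receptor REV-ERB alpha, a repressor of Arntl. Its FPKM was 20.4 in Control and 34.7 in LIPUS cells, a log2 ratio of 0.77, and 97.5% of the tested genes had a lower ratio. Nr1d1 shares 8.55% of its exons with Thra on the opposite strand, whose FPKM was 26.8 in Control and 27.1 in LIPUS cells. Nr1d2 (REV-ERB beta) differed in the same direction by less, with 14.4 and 17.8 and a log2 ratio of 0.31. The Nr1d1 level was 1.33 times that of Arntl in Control cells and 2.78 times in LIPUS cells. Of the activators of the same loop, Rora had an FPKM of 4.23 and 5.00 and was not tested, and Rorb was listed at 0 in both groups.

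The lower gene was Tef, a D-box activator related to Dbp, at 28.2 in Control and 14.6 in LIPUS cells, a log2 ratio of -0.95, and 1.08% of the tested genes had a lower ratio. Nfil3, which represses at the same D-boxes, had 14.6 and 15.0, and Hlf, the other activator of the family, was listed at 0 in both groups. The ratio of Nfil3 to Tef was thus 0.519 in Control and 1.03 in LIPUS cells. The kinases that phosphorylate PER and other clock proteins were all tested, and none of the 6 was past 1.5-fold, beside 9.42% of all tested genes, so this count says little about them. The largest difference among them was in Csnk2b, the regulatory subunit of casein kinase II, with 153 in Control and 115 in LIPUS cells and a log2 ratio of -0.41. Csnk1d and Csnk1e, which set the period length, had log2 ratios of -0.05 and -0.09. The most abundant gene of the list was Sfpq, a PER complex partner, with 259 and 262, and the least abundant tested gene was Btrc, a ubiquitin ligase subunit that acts on PER proteins, with 7.01 and 7.29. Ciart, a further E-box repressor, had 5.27 and 5.71 and was not tested. Of the genes not tested, Fbxl21, which encodes an F-box protein, was low in both groups, with 1.08 in Control and 0.240 in LIPUS cells, a log2 ratio of -2.18.

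The factors that act on Per1 and Per2 transcription were described as a list of 17, with CREB, SRF and glucocorticoid receptor branches, of which 15 were tested. Of these, 0 were higher and 1 was lower by more than 1.5-fold, again beside 4.70% and 4.71%, and the median log2 ratio was -0.02. The lower gene was Crtc1, a CREB coactivator, with 9.74 in Control and 5.06 in LIPUS cells and a log2 ratio of -0.94. Its more abundant relative Crtc2 had 36.7 and 32.0. The most abundant gene of the list was Atf4, a transcription factor of the stress response, with 321 and 337, and the tested gene with the lowest Control FPKM was Creb1, with 7.16 and 8.30, while Crtc1 was the lowest in LIPUS cells. In between, Srf had 74.8 and 80.5, and the glucocorticoid receptor gene Nr3c1 had 18.3 and 20.5. Transcripts of the listed factors that act at CRE and SRF sites were therefore present in both groups. Their levels differed by less than 1.5-fold except for Crtc1 and, among those not tested, Crem and Mkl2. The proteins and their activity were not measured. Crem, which also yields an inducible CREB repressor, had an FPKM of 3.72 in Control and 6.84 in LIPUS cells, and Mkl2, an SRF coactivator, 5.29 and 3.39. Sik1, a kinase that feeds back on CREB coactivators, had 11.2 and 12.9.

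Among 12 genes taken as outputs of the clock through E-boxes, D-boxes or related sites, 9 were tested, 1 was higher and 2 were lower by more than 1.5-fold, beside 4.70% and 4.71% of all tested genes. With 9 genes and no replicate error, nothing particular to the list was read from these counts. Klf10, a zinc-finger repressor, had an FPKM of 48.2 in Control and 86.1 in LIPUS cells, a log2 ratio of 0.84. Nampt, the rate-limiting enzyme of NAD salvage, had 32.3 and 14.7, a log2 ratio of -1.13. Tsc22d3, the glucocorticoid-induced leucine zipper, had 7.28 and 2.80, a log2 ratio of -1.38. The most abundant tested output was Myc, a growth regulator, with 209 and 237, and the one with the lowest Control FPKM was Wee1, a cell cycle kinase, with 6.89 and 7.65, while Tsc22d3 was the lowest in LIPUS cells. The remaining tested outputs, among them Por, Ccnd1 and Cdkn1a, lay between -0.22 and 0.14 on the log2 scale, and the median of the tested genes of the list was 0.01. Among the outputs not tested, Klf11, a relative of Klf10, had 1.09 in Control and 2.35 in LIPUS cells, and Usp2, a deubiquitinase that follows the clock, had 5.36 in each group.

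**Figure D3:**
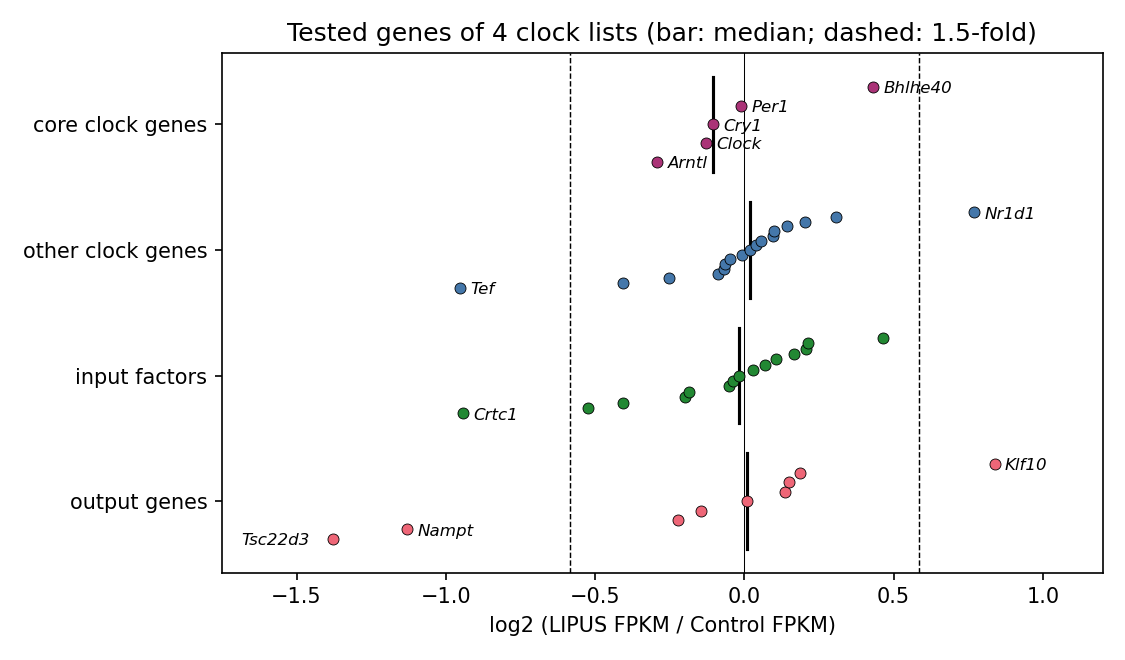
The log2 ratio of LIPUS to Control FPKM for the tested genes of the 4 lists, 1 point per gene, with a bar at the median of each list and dashed lines at 1.5-fold. The core clock genes lie between -0.29 and 0.43, and the named genes of the other lists are those past 1.5-fold.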

How the data were processed

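Libraries were stranded and read from both ends over 100 bases. Upstream of the table, the tools named are Trimmomatic 0.36 for trimming and TopHat 2.1.0 with bowtie 2.2.6.0 for alignment, on the mouse build GRCm38. The authors computed FPKM with Cufflinks (2.2.1 in the methods, 2.1.1 in the submitters' processing notes) and Ensembl transcripts, and deposited 1 pooled FPKM per group. The table also holds the authors' fold changes, test statistics, p-values and q-values, which were not used here. Library totals and values per library were not analysed here, so counting error and replicate spread are unknown, and the methods state only a nominal read number.

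Ratios are LIPUS over Control FPKM without a pseudocount, counted as past 1.5-fold among the genes Cuffdiff tested, a filter that removes low genes. The genes named are all members, and of each further list those past 1.5-fold, the most and least abundant tested gene by Control FPKM and those that say what it holds, with Csnk2b, Crtc2, Crem, Mkl2, Fbxl21, Klf11, Lonrf3, Tspan4 and the printed promoters chosen after their values were seen. Members and lists were chosen with earlier results of these data known. Some listed genes are counted but not reported by name here. Positions and overlaps came from GENCODE M21, promoters from RefSeq. Python 3.11.15, numpy 2.4.6, pandas 2.3.3 and matplotlib 3.10.9 were used, and the steps were tested on simulated data.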

Additional observations from a re-analysis of the deposited data

How the results depend on the processing

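The count of tested members past 1.5-fold stayed at 0 with ratios centred on their median and with upper quartile scaling. It was also 0 with a 2-fold threshold, with pseudocounts of 1 and 0.1, with a minimum FPKM of 1 or 10 in a group and without a filter. Those settings could not raise it, because none of the 10 members was past 1.5-fold, so they say nothing about its stability. With a lower threshold, a log2 ratio of 0.32, it was 1 (Bhlhe40), where 27.0% of all tested genes were past the threshold. The median log2 ratio of the members lay between -0.13 (minimum FPKM of 10, 3 members) and -0.06 (no filter, 10 members), and that of the other clock genes between 0.0051 and 0.04. No member's log2 ratio changed sign or moved by more than 0.1 under another pseudocount or scaling, and the ratio of Per1 lay between -0.015 and -0.0039. With a pseudocount of 1, the log2 ratio of Tsc22d3 was -1.12 and that of Crtc1 -0.82. Leaving out a replicate could not be run, and no paired analysis was possible because each group has a single pooled value. The precision of each value is unknown.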
